A study of Schmidtea mediterranea with 24 samples.

Results

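The Ty3-type Gag-Pol transcript SMESG000003701.1 was followed across 6 groups of whole planarians, *Schmidtea mediterranea*. It is 1 of 22197 genes in the expression table and 1 of 15829 that were tested, and the authors' annotation gives its product as "Transposon Ty3-I Gag-Pol polyprotein". No protein match is listed beside that name, so its identity as a Ty3-type element rests on the name alone and was not checked here. The transcript was chosen on its TPM levels in these same libraries, so those levels and the differences between groups are a description and carry no test. Its level was lowest after *hox1* RNAi, at a mean of 36.2 TPM against 77.6 TPM in control animals, and highest after *post2b* RNAi, at 111 TPM.

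Ty3-type elements, named after an element of the yeast *Saccharomyces cerevisiae*, are retrotransposons flanked by long terminal repeats, and they copy themselves through an RNA intermediate. Gag forms the capsid-like particle that packages the RNA, and Pol is cut into the protease, reverse transcriptase, RNase H and integrase that mature the particle, copy the RNA into DNA and insert it into the genome. In animals such elements are commonly held in check by PIWI proteins with their small RNAs, and in planarians PIWI family genes are known as markers of the stem cells, the neoblasts.

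All animals were asexual adults of the clonal strain CIW4, fed purified dsRNA 7 times, starved for 5 days and frozen whole. The 6 groups received dsRNA against 1 Hox gene (*hox1*, *hox3a*, *hox3b*, *lox5b* or *post2b*) or, as control RNAi, against *unc-22*, a sequence used as a control target, so every group including the control had been fed dsRNA. Each group had 4 libraries of polyadenylated RNA, 24 in all, and each library pooled 3 animals, so that every spread given here is between pools. The ages and sizes of the animals and the silencing of the targeted Hox transcripts were not analysed here.

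Levels are transcripts per 1000000 transcripts (TPM), which divide the reads of a transcript by its length and add up to the same total in each library. TPM keep no read number, so the depth behind a value is unknown. Between 16685 and 17843 genes had a TPM above 0 per library, with the fewest in *lox5b* RNAi. In whole animals, fewer cells that make a transcript and less of it per cell cannot be told apart. The alignment allowed at most 2 loci per read, and how reads shared with near-identical element copies entered the TPM is not given. The level of this gene model is therefore uncertain as a measure of the element family. The authors' annotation matches the model to a pair of transcript sequences, SMED30022656 and SMED30033969. Its genome position and its sequence were not analysed here.

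SMESG000003701.1 was an abundant transcript. Its mean over the 24 libraries was 81.0 TPM, which placed it at rank 1945 from the top and above 87.7% of the tested genes. Single libraries ran from 31.8 to 122 TPM, a 3.83-fold range. Of the variance of its log2 level, 92.9% lay between the 6 groups, where the median tested gene had 50.9%. The spread within groups was a residual SD of 0.16 on the log2 scale, larger than that of 83.2% of the 2817 tested genes with a mean TPM within 2-fold of its own.

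In control RNAi the transcript stood at 68.8, 72.7, 80.5 and 88.3 TPM in replicates 1 to 4, with a mean of 77.6 ± 8.66 TPM (SD, n = 4). After *hox1* RNAi it stood at 31.8, 32.8, 42.7 and 37.4 TPM, with a mean of 36.2 ± 5.01 TPM (SD, n = 4). The highest *hox1* library thus lay below the lowest control library. The 4 *hox1* libraries also lay below each of the other 20 libraries, whose lowest value was 68.6 TPM in *lox5b* RNAi replicate 2. This position was shared by 59 of the tested genes (0.373%), while 17 genes (0.107%) had all *hox1* libraries above all others.

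After *post2b* RNAi the values were 122, 110.0, 119 and 93.6 TPM, with a mean of 111 ± 12.7 TPM (SD, n = 4). All 4 lay above the control libraries. The lowest of them, replicate 4, was under the highest libraries of *hox3a* and *lox5b* RNAi, so *post2b* did not stand apart from all other groups in the way *hox1* did.

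The remaining 3 groups were close to one another. Values after *hox3a* RNAi were 87.4, 80.1, 95.5 and 95.8 TPM, with a mean of 89.7 ± 7.48 TPM (SD, n = 4). After *hox3b* RNAi they were 88.8, 80.1, 83.5 and 92.0 TPM, with a mean of 86.1 ± 5.32 TPM (SD, n = 4), the narrowest spread of the 6 groups at 6.18% of the mean. After *lox5b* RNAi they were 87.2, 68.6, 94.7 and 91.2 TPM, with a mean of 85.4 ± 11.6 TPM (SD, n = 4). Each of these 3 groups overlapped the control libraries, and in *lox5b* RNAi replicate 2 lay well below the other libraries of its group.

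**Figure D1:**
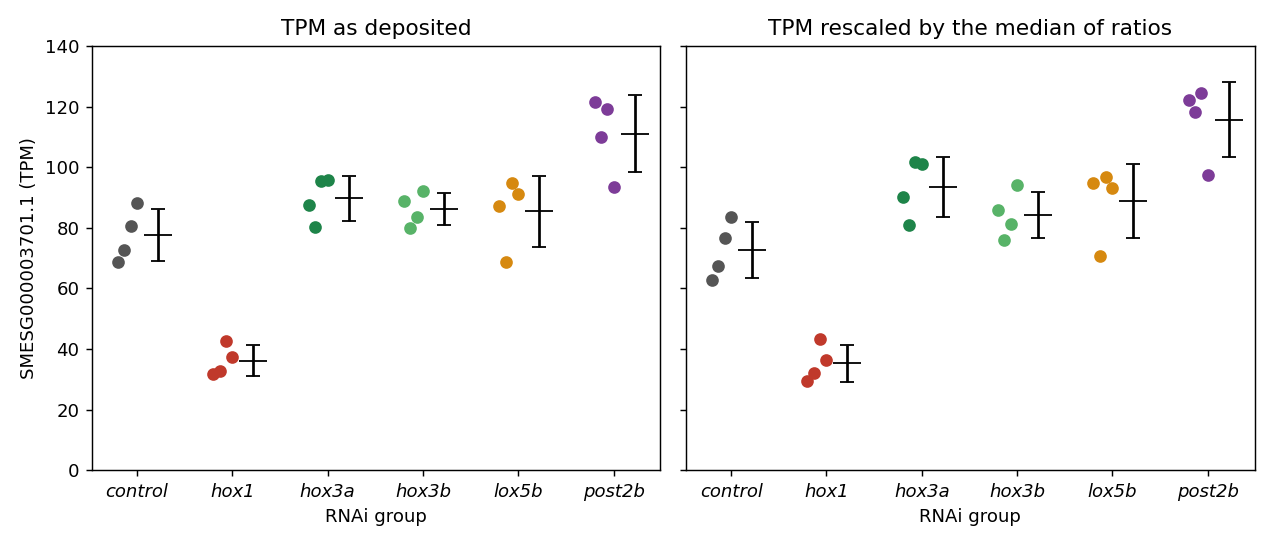
Level of SMESG000003701.1 in each library (points, TPM on a linear axis from 0) by RNAi group, with the mean and SD of 4 libraries beside them, as deposited (left) and after rescaling each library by the median of ratios (right). The *hox1* points, 31.8 to 42.7 TPM as deposited, lie below all other points in both panels, and the *post2b* points, 93.6 to 122 TPM, lie above all control points.

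Ordered by mean level, the groups ran from *hox1* through control, *lox5b*, *hox3b* and *hox3a* to *post2b*. The step from *hox1* to control was 41.4 TPM, 4.78 times the larger SD of the pair. The next 3 steps were 7.85 TPM from control to *lox5b*, 0.674 TPM from *lox5b* to *hox3b* and 3.60 TPM from *hox3b* to *hox3a*, each smaller than the larger SD of its pair and with overlapping libraries. Neighbours in this stretch of the order therefore did not differ beyond their spread. The last step, from *hox3a* to *post2b*, was 21.4 TPM or 1.69 times the larger SD, with 1 *post2b* library inside the *hox3a* range.

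On the log2(TPM + 0.5) scale the difference of *hox1* from control RNAi was −1.09 with a standard error (SE) of 0.11, a 2.13-fold lower level. It ranked as the 117th lowest difference among the 15829 tested genes. In this comparison all *hox1* libraries lay below all control libraries for 9.34% of the tested genes, and 1.58% of them were called lower by limma at 1.5-fold and a Benjamini-Hochberg adjusted p under 0.05. Since the transcript was picked with this difference known, nothing is read from its place among them.

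The difference of *post2b* from control RNAi was 0.51 (SE 0.11), a 1.43-fold higher level that falls short of the 1.5-fold cutoff used in the study. It was the 148th highest among the tested genes. All *post2b* libraries lay above all control libraries for 3.23% of the tested genes. Rescaling the libraries by the median of their ratios to a typical library, so that the median gene is level, widened this difference to 0.67, past 1.5-fold, with the median tested gene at −0.15 in this comparison. Without *post2b* replicate 4, the lowest of its group, the difference was 0.59, also past 1.5-fold.

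Smaller differences from control were measured in the other groups, at 0.21 for *hox3a*, 0.15 for *hox3b* and 0.13 for *lox5b* RNAi (SE 0.11 each). The median tested gene was at −0.14, −0.05 and −0.15 in the same comparisons. After rescaling, the *hox3a* difference was 0.36 and the *lox5b* difference 0.29. The 5 comparisons use the same 4 control libraries, so a control level that happened to be low or high would move all of them together.

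Comparisons among the Hox RNAi groups do not use the control libraries. Against *hox3a*, *hox3b* and *lox5b* RNAi, *hox1* RNAi animals had a level lower by 1.30, 1.25 and 1.23 on the log2 scale (SE 0.11 each), and the *lox5b* comparison placed it 10th lowest of the tested genes. Against *post2b* RNAi the level was lower by 1.61, a 3.05-fold difference and the 18th lowest. No *hox1* library overlapped any of these groups, as held for 2.79%, 5.34%, 6.85% and 3.43% of tested genes with all *hox1* libraries below *hox3a*, *hox3b*, *lox5b* and *post2b* respectively. The level in *post2b* RNAi was above that in *hox3a* by 0.30, in *hox3b* by 0.36 and in *lox5b* by 0.38 (SE 0.11 each). Of these, the *post2b* libraries as deposited were clear of the *hox3b* libraries only, a position shared by 1.96% of tested genes. After rescaling by the median of ratios they were narrowly clear of the *lox5b* libraries too, at 97.5 TPM or more against 96.8 TPM or less. The share of tested genes in that rescaled position was not counted.

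**Figure D2:**
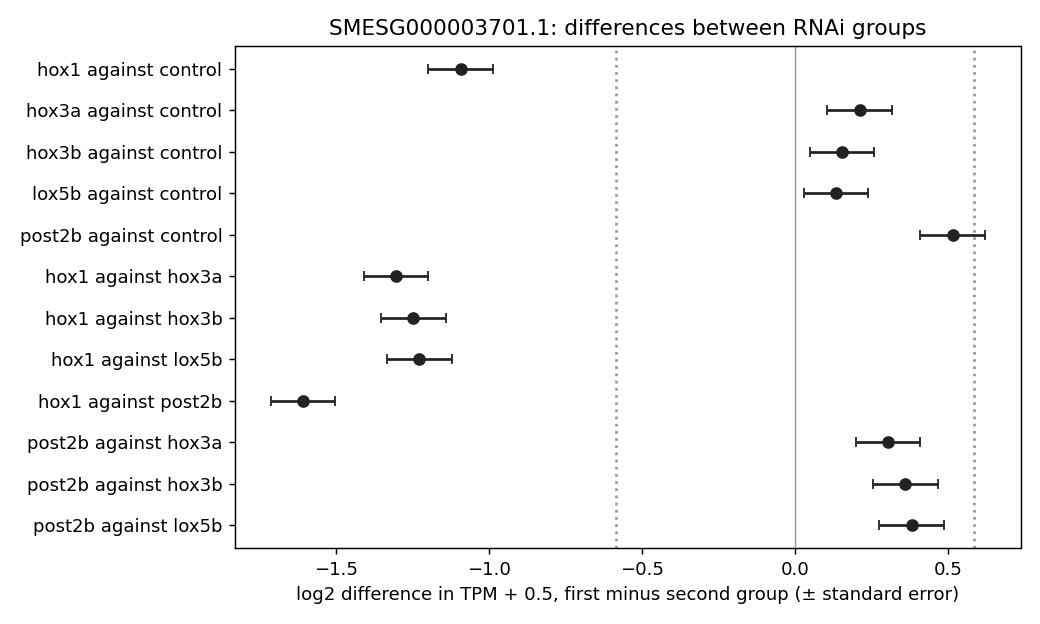
Difference in the level of SMESG000003701.1 between groups (points, log2 scale, first minus second group, bars ± SE from the limma fit over 24 libraries), with dotted lines at 1.5-fold. All 5 differences that involve *hox1* lie beyond 1.5-fold on the low side, from −1.09 to −1.61, and the *post2b* difference from control, 0.51, lies just inside the line on the high side.

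Other transcripts named after, or matched to, proteins of retroelements were compared to see how far they moved alike. The search covered only the part of the authors' annotation at hand, which held 676 of the 15829 tested genes. Retroelement transcripts outside that part were not searched. A keyword list of such products held 5 transcripts besides SMESG000003701.1, of which 4 passed the filter on low levels. None of the 4 was called lower or higher in any Hox RNAi group against control. Of all tested genes, 1.86% were called in either direction in *hox1* and 5.06% in *post2b* RNAi, and the shares in *hox3a*, *hox3b* and *lox5b* RNAi were 4.92%, 1.35% and 4.18%. By limma with no adjustment, 1 of the 4 had a p under 0.05 in *hox3a* RNAi and none had in the other comparisons. Their median difference in *hox1* RNAi was −0.03 on the log2 scale, beside −0.06 for all tested genes.

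SMESG000001202.1, a Gag-pol polyprotein, had a mean of 4.12 TPM in control, with 3.92, 4.58, 3.91 and 4.08 TPM in the 4 libraries, and 3.69 TPM in *hox1* RNAi, with 3.39, 3.69, 3.93 and 3.74 TPM. The groups overlapped, and the difference was −0.14 (SE 0.14, Benjamini-Hochberg adjusted p = 0.542 by limma). SMESG000003624.1, a Pol polyprotein, stood at 2.94, 2.18, 1.63 and 2.26 TPM in control and at 2.91, 1.71, 2.56 and 2.52 TPM in *hox1* RNAi, again with overlap. Its difference was 0.09 (SE 0.17, adjusted p = 0.772 by limma). For both transcripts the annotation lists the product name without a protein match.

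SMESG000001897.1 carries the product name SERAC1, a lipid-remodelling protein of mitochondria in mammals, and also matches a reverse transcriptase of *Schistosoma japonicum*. It was the most abundant of the 4, at 10.7 ± 1.36 TPM in control and 11.6 ± 0.763 TPM in *hox1* RNAi (SD, n = 4 each). In *hox3a* RNAi it stood at 13.6 ± 1.58 TPM (SD, n = 4), with all libraries above the control libraries, as held for 2.48% of tested genes. Its difference there was 0.33 (SE 0.09, adjusted p = 0.0148 by limma), under the 1.5-fold cutoff. In *post2b* RNAi, where the Ty3-type transcript was highest, its difference from control was 0.01 (SE 0.09).

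SMESG000002055.1, unnamed but matched to a pol polyprotein of *Schistosoma mansoni*, had a mean of 0.873 TPM in control, 0.665 TPM in *hox1* RNAi and 1.13 TPM in *lox5b* RNAi, with overlap in each comparison. SMESG000000071.1, a Gag pol polyprotein by product name alone, did not pass the filter, since no library exceeded 0.352 TPM. Over the 24 libraries, Pearson's r with SMESG000003701.1 on the log2 scale was 0.23 for SMESG000001202.1, 0.02 for SMESG000001897.1, 0.15 for SMESG000002055.1 and −0.15 for SMESG000003624.1. The levels of these 4 transcripts thus varied largely apart from that of the Ty3-type transcript in these libraries, though all 4 are low in TPM beside it.

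**Figure D3:**
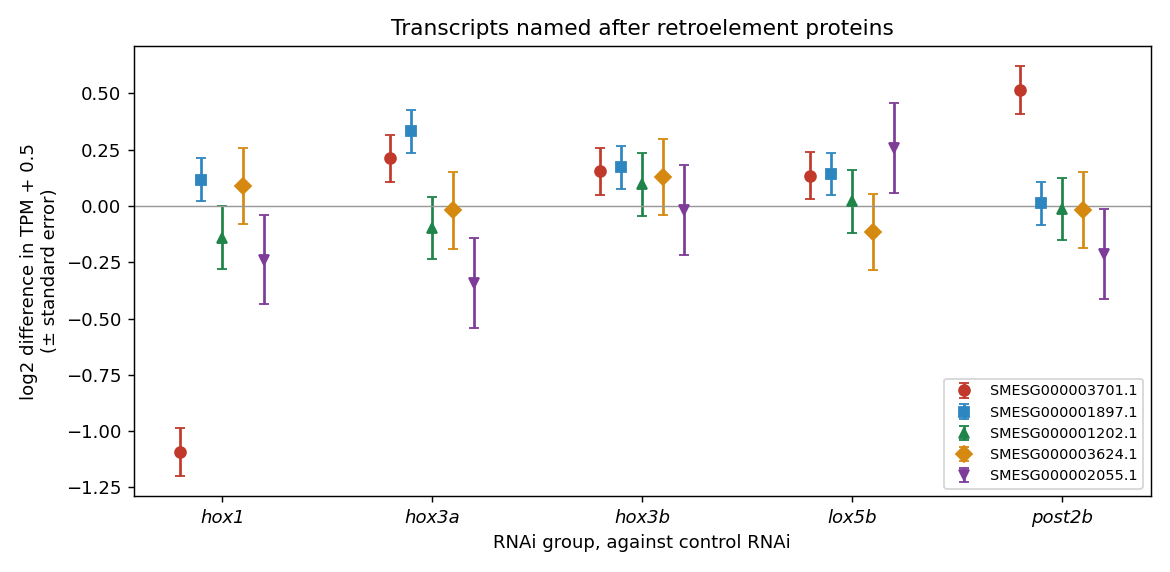
Differences from control RNAi (log2 scale, bars ± SE) of the 5 transcripts of the retroelement list that passed the filter, by Hox RNAi group. SMESG000003701.1 is at −1.09 in *hox1* and 0.51 in *post2b* RNAi, while the other 4 lie between −0.24 and 0.12 in *hox1* and between −0.21 and 0.01 in *post2b* RNAi.

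Transcripts with a match to products derived from DNA transposons, which move without an RNA copy, were counted in the same way. Some of them carry another product name, such as Tropomyosin-2, SFI1 or porcupine, and were listed because a further match of the same gene model names such a product. Of 12 such transcripts 10 were tested and none was called in any of the 5 comparisons, beside 1.86% of all tested genes in *hox1* RNAi and the shares given above in the others. Their log2 differences ran from −0.08 to 0.58 in *hox1* RNAi and from −0.20 to 0.34 in *post2b* RNAi. The highest *hox1* difference, that of SMESG000000587.1, lay just under 1.5-fold, and this transcript was called higher under 5 of the alternatives, with differences of 0.59 to 0.67. Products of chromatin regulation, RNA helicases and a Ribonuclease H1, which cuts RNA paired with DNA, made up another list, with 6 of 7 transcripts tested.

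The single called transcript of the chromatin and RNA helicase list was SMESG000000092.1, a chromodomain helicase, of a protein class that moves nucleosomes on DNA. Its level was 10.7 ± 1.26 TPM in control, 4.98 ± 1.04 TPM in *lox5b*, 6.86 ± 0.852 TPM in *hox3a* and 6.71 ± 1.30 TPM in *post2b* RNAi (SD, n = 4 each). It fell by 1.04 on the log2 scale in *lox5b* (SE 0.16, Benjamini-Hochberg adjusted p = 1.3e-05 by limma, 1.29e-05 to 0.000271 over the alternatives). It also fell by 0.60 in *hox3a* (adjusted p = 0.00905 by limma, 0.00732 to 0.0383 over the alternatives) and by 0.64 in *post2b* RNAi (adjusted p = 0.00507, 0.00238 to 0.0269). Each of these calls ended once libraries were rescaled by the median of ratios, because the fold then missed its cutoff, at −0.46 in *hox3a*, −0.90 in *lox5b* and −0.49 in *post2b* RNAi. The fold also missed its cutoff without control replicate 1, at −0.54, −0.98 and −0.58 in that order. The same held in *hox3a* without control replicate 2 (−0.58) or *hox3a* replicate 3 (−0.54) or 4 (−0.57), in *lox5b* without its replicate 1 (−0.96) or 2 (−0.97) and in *post2b* without its replicate 2 (−0.55). All tested genes were called lower at a share of 4.07% in *hox3a*, 3.92% in *lox5b* and 4.73% in *post2b* RNAi. In *hox1* RNAi, where SMESG000003701.1 was lowest, the helicase stood at 7.81 ± 1.38 TPM (SD, n = 4) and was not called, and its r with the Ty3-type transcript was −0.20 over the 24 libraries.

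The genes whose log2 levels followed SMESG000003701.1 most closely over the 24 libraries were then sought among all tested genes. The points share their libraries and the scaling of each library, and 4 of them are the *hox1* libraries that lie far from the rest, so r is a description. The median r of the tested genes was −0.16, and 41 genes had r above 0.8 while 3 had r below −0.8. Of the 41, 40 were called lower in *hox1* RNAi, beside 1.58% of all tested genes. All *hox1* libraries lay below the other 20 for 36 of them, beside 0.373% of all tested genes. Both counts are a consequence of how the 41 were picked. Their mean levels ran from 4.96 to 2667 TPM with a median of 495 TPM. A product name was at hand for 1 of them, in a part of the authors' annotation that held 676 of the 15829 tested genes.

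The 5 genes with the highest r had no product name in the part of the annotation at hand, so what they encode is not known here. They were SMESG000042349.1 with r = 0.98, SMESG000042388.1 and SMESG000073667.1 with r = 0.97, and SMESG000035316.1 and SMESG000034921.1 with r = 0.96. When the *hox1* libraries were left out, r over the remaining 20 was 0.88 for SMESG000042349.1 and 0.73 to 0.77 for the other 4. After the mean of each group was taken away, so that only differences between pools of the same group remained, r was 0.79 for SMESG000042349.1 and 0.67 to 0.77 for the other 4. This within-group r joins all 6 groups and belongs to genes picked for their r in these same libraries, and it does not show a likeness in each group. By this measure 13 tested genes had r above 0.7, with SMESG000042349.1 second, and 22 had r below −0.7.

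SMESG000042349.1 was about 10 times as abundant in TPM. Its control libraries stood at 739.6, 745, 818 and 917 TPM, and its *hox1* libraries at 264, 284, 364 and 334 TPM. In both transcripts the highest *hox1* library was replicate 3 and the lowest was replicate 1, and in both the highest control library was replicate 4. Its *post2b* libraries stood at 1123, 1217, 1142 and 985 TPM, with replicate 4 again the lowest. In *lox5b* RNAi its replicate 2 was the lowest of the group at 712 TPM, as it was for the Ty3-type transcript. In other groups the extremes differed. In *hox3a* RNAi SMESG000042349.1 stood at 1084, 932, 1021 and 922 TPM, lowest in replicate 4 where SMESG000003701.1 was highest. In *hox3b* RNAi it stood at 962, 868, 841 and 886 TPM, and neither its highest nor its lowest library was that of the Ty3-type transcript, and the highest *post2b* library also differed.

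The ratio of SMESG000042349.1 to SMESG000003701.1 was 10.1 ± 1.02 over the 24 libraries (SD), with a range of 8.31 to 12.4. The ratio was 8.31 to 8.94 in the *hox1* libraries and 10.2 to 10.8 in the control libraries, so SMESG000042349.1 was lowered somewhat more. For SMESG000042388.1 the ratio was 11.6 on average, with a coefficient of variation of 9.67% over the 24 libraries. For SMESG000034921.1, the most abundant of the 5, it ran from 14.5 to 35.0 and was lowest in *hox1* RNAi, with a mean of 17.3 there and 28.1 in control. Among the 5, log2 differences from control in *hox1* RNAi ran from −1.12 for SMESG000035316.1 to −1.81 for SMESG000034921.1, all larger than the −1.09 of the Ty3-type transcript.

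Among the genes with a product name in the part of the annotation at hand, *gm2a*, SMESG000000730.1, followed SMESG000003701.1 most closely. Its product in mammals is the activator that presents the ganglioside GM2 for breakdown in lysosomes. The r of *gm2a* was 0.86, rank 32 among the tested genes, and 0.64 once group means were removed. Its *hox1* libraries stood at 404, 388, 534 and 439 TPM, against 1289, 1381, 1440 and 1722 TPM in control. In *lox5b* RNAi, however, its libraries stood at 810.4, 609, 1014 and 923 TPM, all below control as held for 32.6% of tested genes. The Ty3-type transcript there was 0.13 (SE 0.11) above control on the log2 scale, with overlapping libraries. Without the *hox1* libraries the r of *gm2a* with SMESG000003701.1 was 0.29 over 20 libraries, so most of its likeness rested on *hox1* RNAi. The ratio of *gm2a* to SMESG000003701.1 was 18.8 in control, 12.2 in *hox1* and 9.75 in *lox5b* RNAi on average.

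**Figure D4:**
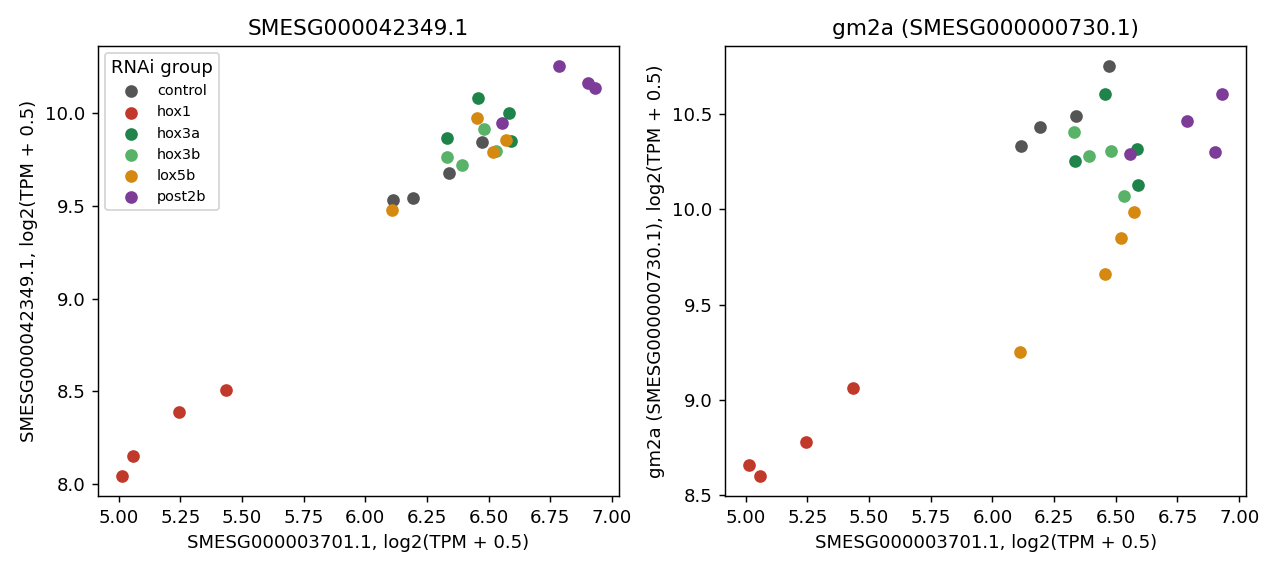
Level of SMESG000042349.1 (left) and *gm2a* (right) against that of SMESG000003701.1, each point a library on log2(TPM + 0.5) axes, coloured by RNAi group. The points of SMESG000042349.1 lie close to a line, with r = 0.98 over 24 libraries and 0.88 without *hox1*, while the *lox5b* points of *gm2a* fall below those of the other groups at a like Ty3-type level, with r = 0.86 and 0.29.

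Next among the genes with a name at hand was SMESG000003228.1, a neutral ceramidase, which cleaves the lipid ceramide, with r = 0.67 at rank 79. It was followed by SMESG000002559.1, a histidine ammonia-lyase, which starts histidine breakdown, with r = 0.64 at rank 92. Neutral ceramidase stood at 112 ± 4.34 TPM in control, 83.8 ± 2.34 TPM in *hox1* and 95.6 ± 6.76 TPM in *lox5b* RNAi (SD, n = 4 each). Without the *hox1* libraries its r was −0.15. Histidine ammonia-lyase stood at 10.2 ± 1.69 TPM in control, 6.89 ± 0.926 TPM in *hox1* and 6.88 ± 0.399 TPM in *lox5b* RNAi (SD, n = 4 each), and its r without *hox1* was 0.38.

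At the other end, SMESG000014290.1, SMESG000038559.1 and SMESG000014593.1, all without a product name at hand, had the lowest r at −0.85, −0.83 and −0.82. SMESG000014593.1 was highest in *hox1* RNAi at 50.9 ± 5.61 TPM and lowest in *post2b* RNAi at 32.0 ± 1.40 TPM (SD, n = 4 each), where the Ty3-type transcript was lowest and highest. SMESG000014290.1 moved little, from 557 TPM in *post2b* to 656 TPM in *hox1* RNAi. After the libraries were rescaled by the median of ratios, r was −0.30 for SMESG000014290.1, −0.53 for SMESG000038559.1 and −0.78 for SMESG000014593.1. The level of SMESG000003701.1 itself had r = −0.45 with the scale factor of the library, and the part of library scale in these negative values was not tested.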

How the data were processed

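Stranded polyA RNA-seq libraries of 24 pools of 3 animals were made. Demultiplexing by the authors used bcl2fastq2 2.20. STAR then placed the reads on the genome smed_dd_g4 (introns up to 5000 bases, at most 2 loci per read) and gave counts per Smes_hv_v1 gene model. The values the authors deposited are TPM for 22197 genes; the tool that made TPM is not given in the sources used here. TPM keep no depth, so precision rests on the spread between 4 libraries per group.

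The 15829 genes that reached 0.5 TPM in 4 or more libraries were tested. A limma model (version 3.58.1, R 4.3.3; eBayes, intensity trend, two-sided) was fitted to log2(TPM + 0.5) of all 24 libraries by RNAi group, with Benjamini-Hochberg adjustment over the tested genes. Cutoffs for a call were 1.5-fold and 0.05 for the adjusted p, and for *lox5b* against control 2-fold and 0.01. The steps were run on simulated data with planted changes, as a check of the code only. The authors' count test, edgeR, was not used because TPM are not counts.

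The transcript, the 3 keyword lists, the comparisons and the alternatives were chosen with earlier results of these data known. Only a part of the authors' annotation was at hand, which held 676 of the tested genes, and genes outside it count as without a product name. Keywords were matched to its product names and to the protein matches the authors list beside them, so some members carry another name or none. Named were all retroelement-list transcripts, called members of the other 2 lists, and the genes with the 5 highest and 3 lowest Pearson r with the transcript, plus the 3 highest with a product name. Alternatives were pseudocounts of 0.1 and 1, no filter, a mean TPM of at least 2, no trend, only the groups compared, a replicate block, rescaling by the median of ratios, 1 cutoff for all groups, the study's printed adjusted p cutoffs of 0.5 and 0.1, and leaving out each library. Numbered replicates were not known to be paired.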

Additional observations from a re-analysis of the deposited data

Results flagged for a closer look

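In 102 groups of 4 libraries (17 named transcripts in 6 groups), 5 held 1 library far from the other 3 by Dixon's criterion, and chance flags about 1 in 20 groups. None was a group of SMESG000003701.1. SMESG000001897.1, the SERAC1 and reverse transcriptase match, was low in *hox1* RNAi replicate 3 at 10.4 TPM, where the other 3 were at 11.8 TPM or more, and high in *hox3b* RNAi replicate 4 at 12.6 TPM, where the others were at 11.8 to 11.9 TPM. Among the genes without a name at hand that ran opposite to the Ty3-type transcript, SMESG000014290.1 was high in *hox3a* RNAi replicate 1 at 632 TPM. SMESG000038559.1 was low in *hox3b* RNAi replicate 3 at 734 TPM, and SMESG000014593.1 was high in *hox3b* RNAi replicate 1 at 48.5 TPM.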

How the results depend on the processing

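The 12 differences of SMESG000003701.1 kept their direction under 16 alternatives each, 192 values in all. Some alternatives cannot move a difference of group means and so do not bear on its direction. These are both filter settings, no trend, only the groups compared and the replicate block. With 1 library left out, the difference from control ranged from −1.18 to −1.03 in *hox1*, 0.16 to 0.28 in *hox3a*, 0.10 to 0.22 in *hox3b*, 0.08 to 0.24 in *lox5b* and 0.46 to 0.59 in *post2b* RNAi, where it passed 1.5-fold without *post2b* replicate 4. Correlations of deviations between same-numbered libraries ran from −0.13 to 0.21 and were over 0.1 for all 4 pairs in no comparison. With the replicate number as a block the differences stayed at −1.09, 0.21, 0.15, 0.13 and 0.51 in that order. This is fixed in advance, since each group holds 1 library of each number, and only the SE changed, from 0.11 to 0.09.

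Counts of list transcripts called moved in 22 of 180 values, each by 1 transcript. In *hox1* RNAi, 1 transcript instead of 0 (SMESG000000587.1, matched to a Tigger transposase-derived protein and named after its values were seen) was called higher with a pseudocount of 0.1 and with rescaling, and 0 to 1 with a library left out (1 without control replicate 2 or 3 or *hox1* replicate 1). In *hox3a* RNAi, 2 instead of 1 were called lower with a pseudocount of 0.1 (with SMESG000002563.1, CREB-binding protein) and with no filter (with SMESG000000385.1, an RNA helicase), 0 with a pseudocount of 1 and with rescaling, and 0 to 1 with a library left out (0 on leaving out control 1, control 2, *hox3a* 3 or *hox3a* 4). In *lox5b* RNAi the count lower was 0 instead of 1 with a pseudocount of 1 and with rescaling, and 0 to 1 with a library left out (0 without control replicate 1 or *lox5b* replicate 1 or 2). In *post2b* RNAi it was 0 with rescaling and 0 to 1 with a library left out (0 without control replicate 1 or *post2b* replicate 2). In *hox3b* RNAi it was 0 to 1, with 1 (SMESG000001583.1, an RNA helicase) only without *hox3b* replicate 1. The calls lost were those of SMESG000000092.1, whose adjusted p by limma stayed at or below 0.0383 while its fold missed the cutoff. Depth is unknown for TPM, which limits what can be said of transcripts near 1 TPM.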
